A study of Homo sapiens with 6 samples.

Results

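The genes described here encode the proteasome: the subunits of its core and regulatory particles, its activators, its inhibitor and the chaperones that assemble it. They were chosen by symbol, as every gene whose probe sets carry a single annotated symbol that starts with PSM, followed by a letter from A to G and a digit. This gave 50 of the 19775 named genes on the arrays. Of the 50, 42 are proteasome genes and 8 only share the form of the symbol, namely 6 non-coding RNAs that lie beside proteasome genes and PSMC3IP and PSME3IP1, which encode other proteins. The 42 were set against each other as 4 immune-type genes (PSMB8, PSMB9, PSMB10 and PSME1) and 38 others. PSME2, the partner of PSME1, and PSMA6 were not analysed here because each shared its probe sets with another symbol. PSMB11, PSMC5, PSMD7 and PSMD13 were also not among the 42.

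The cells were CaSki, an established line of human cervical squamous carcinoma that carries integrated papillomavirus DNA. They were grown in medium without recombinant TGF-β1 (untreated) or with it at 2 ng/mL, and the study asked which genes, those of the TGF-β pathway among them, differed. Each group had 3 Affymetrix arrays of total RNA. How long the cells were treated is not stated in the labels, nor whether the arrays of a group stem from separate cultures. The p-values therefore rest on the spread among arrays, part or all of which may be technical. In such bulk RNA, fewer cells that express a gene and less RNA of it per cell cannot be told apart.

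The proteasome degrades proteins marked with ubiquitin. Its barrel-shaped core is built of rings of alpha and beta subunits, and 3 of the beta subunits, PSMB5, PSMB6 and PSMB7, cut the substrate. Under interferon signalling PSMB8, PSMB9 and PSMB10 are made and take their places in newly assembled cores, giving the immunoproteasome, which favours peptides that bind MHC class I molecules. A regulatory particle of ATPase and non-ATPase subunits recognises and unfolds substrates, and other caps, among them the PSME1 and PSME2 ring, can bind in its place. Squamous carcinomas often lower components of this peptide pathway.

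Values are log2 expression estimates made with RMA, 1 probe set per gene. Genes with an adjusted p below 0.05 in a limma fit over all 19775 genes are referred to as called, and a negative difference (log2) means a lower value with TGF-β1. Of all genes 8.5% were called, 4.03% higher and 4.47% lower. Arrays numbered 1 in either group stood apart from the rest in RNA quality, with 3' over 5' ratios of control transcripts of 1.19 and 1.15 (log2), while the other 4 had 0.69 to 0.86. The cells carried epithelial transcripts, with all 5 measured markers of a squamous epithelial list (KRT5, KRT14, CDH1, EPCAM and DSP) above the median probe set. TP63 and KRT6A, also listed, had no value here. The mean log2 value of the 5 measured markers was 10.0 to 10.1 on untreated and 10.1 to 10.3 on treated arrays. Of these 5, KRT14 was called higher (7.25 to 8.02) and EPCAM lower (11.17 to 10.47). Of 5 fibroblast markers COL1A1 was called higher (7.80 to 9.37) and the other 4 were not called, with DCN at 4.70 and 4.97 and LUM at 2.49 and 2.50. The mean log2 value of the 5 was 4.73, 4.89 and 4.79 on untreated and 5.08, 5.12 and 5.21 on treated arrays, without overlap. This mean includes the COL1A1 difference of 1.58. The other 4 differed by -0.14 to 0.27, 2 of them below 0, and in each the groups overlapped. Of 8 measured leukocyte markers 0 were called (limma, 0 at an unadjusted p below 0.05), and the mean log2 value of these markers lay between 3.64 and 3.71 on untreated and 3.60 and 3.73 on treated arrays. Of these 8 markers 3, CD3E, CD74 and ITGAM, lay above the median probe set, at 4.31 to 5.09 in untreated samples. PTPRC, which encodes the pan-leukocyte antigen CD45, stood at 2.76 in untreated and 2.57 in treated samples, below the median of the arrays. The part of other cell types in the results was not tested.

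Among the 42 proteasome genes 1 rose and 5 fell with TGF-β1, and 36 did not pass. The falls were those of the 3 immune catalytic subunits PSMB8, PSMB9 and PSMB10, of the alpha ring subunit PSMA3 and of the assembly chaperone PSMG4, and the rise was that of PSMD2, a non-ATPase scaffold of the base. The falls made up 11.9% of the 42, against 4.47% of all genes and 9.28% of the 3599 genes at least as bright as the dimmest proteasome gene other than PSMA8, so the share of falls lay close to that of bright genes. The single rise compares with 7.59% of those bright genes. The immune-type genes differed from the others in count: 3 of 4 fell, against 2 of 38, and their median difference was -0.40 against -0.06, with -0.00 over all genes. These shares and medians are a description, and no test was made over the list.

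Promoter sequences of called genes, and of some that were not called, are shown first. Short matches to an interferon-stimulated element were found before some genes that fell and before some that were not called. Whether they bear on the falls was not tested. The element core, GAAA followed after any 2 bases by GAAA, was searched on both strands in the 250 bases before each annotated start, in the RefSeq promoter table of GRCh38.p14, which held 36 of the 42 genes. It was found before 3.71% of all genes in that table and before 4 of the 36, PSMB10, PSMG4, PSMB4 and PSMA4. In PSMB10 and PSMG4 the match reads GAAAGCGAAA, a form found before 27 of 27305 genes. These letters were taken from the PSMB10 match after it was seen, so its presence there follows from the choice. The same letters precede PSMB8-AS1, TAP2 and, on the opposite strand, TAP1. Without these 5 genes, 1 of 19 measured genes with the letters fell. Each of the following 30-base sites is written 5′ to 3′ on the strand of its gene, with the core in capitals.
PSMB10, chr16:67936852-67936881, minus strand, core 21 bases before the start: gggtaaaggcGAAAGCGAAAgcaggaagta
PSMG4, chr6:3258904-3258933, plus strand, core 33 bases before the start: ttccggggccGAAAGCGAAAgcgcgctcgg
PSMB8-AS1, chr6:32844032-32844061, plus strand, core 44 bases before the start: aggaggaagtGAAAGCGAAAgccacagatc
TAP2, chr6:32838778-32838807, minus strand, core 58 bases before the start: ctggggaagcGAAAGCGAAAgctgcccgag
TAP1, chr6:32853813-32853842, minus strand, core 128 bases before the start: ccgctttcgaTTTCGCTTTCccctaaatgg
PSMB4, chr1:151399495-151399524, plus strand, core 68 bases before the start: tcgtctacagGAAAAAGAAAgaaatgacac
PSMA4, chr15:78540155-78540184, plus strand, core 240 bases before the start: atagtgaagaGAAAATGAAAggagagcgcc

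The genes of these sites did not all move alike: PSMB10, PSMG4, PSMB8-AS1 and TAP2 fell, while TAP1, PSMB4 and PSMA4 did not pass, with differences of -0.10, -0.03 and -0.15. The interferon-stimulated core was not found in the windows of PSMB8, PSMB9, PSMA3 or PSMD2, whose 120 bases before the first listed start are given for comparison. PSMB8 has a second annotated start at chr6:32844047, on the minus strand, which lies inside the core of the site printed for PSMB8-AS1. That core was therefore not wholly inside the window before this start. The site printed for TAP1 ends at chr6:32853842, between the TAP1 start at chr6:32853704 and the PSMB9 start at chr6:32854192. It lies before both genes, which run in opposite directions, but outside the window searched for PSMB9. The absence from these windows thus does not show that PSMB8 and PSMB9 lack the core nearby. Of the other elements searched, TTCNNNGAA was found before 7 of 36 proteasome genes, PSMB8 among them, and before 8.09% of all genes. The SMAD element GTCTAGAC, named for the factors that TGF-β activates, was found before 0 of 36 and before 0.231% of all genes. With so rare a string, a count of 0 among 36 says little about these genes, and shorter forms were not searched. The NF-Y box CCAAT was found before 16 of 36 and before 37.0% of all genes. A match is a string of letters in a window and was not tested as a site.
PSMB8, chr6:32844680-32844799, minus strand: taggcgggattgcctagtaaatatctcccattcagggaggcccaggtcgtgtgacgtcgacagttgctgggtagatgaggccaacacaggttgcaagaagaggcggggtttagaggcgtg
PSMB9, chr6:32854072-32854191, plus strand: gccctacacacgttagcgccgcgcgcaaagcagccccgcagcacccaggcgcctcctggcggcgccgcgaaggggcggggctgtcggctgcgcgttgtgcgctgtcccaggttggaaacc
PSMA3, chr14:58244723-58244842, plus strand: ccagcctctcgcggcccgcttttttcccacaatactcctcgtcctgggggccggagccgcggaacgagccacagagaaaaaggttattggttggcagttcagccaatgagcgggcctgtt
PSMD2, chr3:184299121-184299240, plus strand: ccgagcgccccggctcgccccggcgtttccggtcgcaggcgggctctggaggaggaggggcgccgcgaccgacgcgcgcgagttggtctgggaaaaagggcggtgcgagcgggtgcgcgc

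PSMB8, which replaces the chymotrypsin-like subunit PSMB5, read 8.69, 8.83 and 8.73 on the untreated arrays 1 to 3 and 8.32, 8.37 and 8.39 on the treated ones. Every treated array lay below every untreated array. The fall was 1.31-fold, a difference of -0.39 ± 0.07 (SE, limma adjusted p = 0.015). PSMB9, which replaces the caspase-like subunit PSMB6, read 9.58, 9.70 and 9.67 untreated and 9.08, 9.30 and 9.34 treated. Again the groups did not overlap, with treated array 1 the lowest. The fall was 1.33-fold, -0.41 ± 0.09 (SE, limma adjusted p = 0.029). PSMB10, which replaces the trypsin-like subunit PSMB7, read 9.33, 9.42 and 9.43 untreated and 8.73, 8.97 and 9.05 treated. It also showed no overlap and its lowest value on treated array 1, and it fell 1.39-fold, -0.48 ± 0.10 (SE, limma adjusted p = 0.0213). In all, 16.3% of genes had treated values below all untreated values, and of the bright genes above 34.9% did.

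These 3 calls were close to the threshold. PSMB8 was no longer called without untreated array 2 or 3 or treated array 2 (limma adjusted p = 0.0673, 0.0546 and 0.0521), PSMB10 without untreated array 1, 2 or 3 or treated array 2 (0.0538, 0.0789, 0.0832 and 0.056), and PSMB9 without any array but treated array 3 (0.0612, 0.102, 0.0983, 0.0516 and 0.0655). The differences themselves stayed between -0.42 and -0.35 for PSMB8, between -0.46 and -0.33 for PSMB9 and between -0.55 and -0.39 for PSMB10, and they were -0.40, -0.37 and -0.42 without both arrays numbered 1 (adjusted p = 0.0744, 0.0781 and 0.0655).

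**Figure D1:**
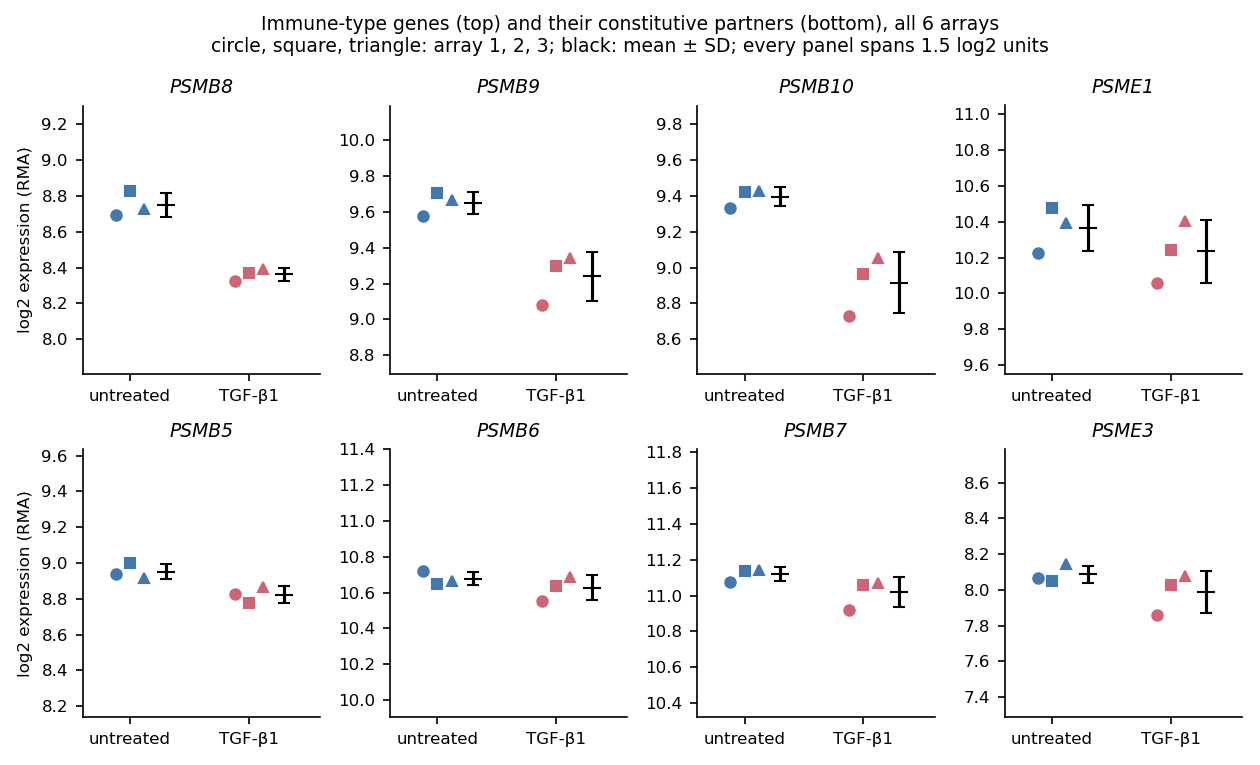
Log2 expression (RMA, vertical axes) of 4 immune-type genes (top) and the genes they were compared with (bottom) on the 3 untreated (blue) and 3 TGF-β1-treated (red) arrays. Below are PSMB5, PSMB6 and PSMB7, which the first 3 replace, and PSME3, a relative of PSME1. Circles, squares and triangles are arrays 1, 2 and 3, and black bars the mean ± SD. Each panel spans the same log2 range, and PSMB8, PSMB9 and PSMB10 show a gap between groups, which for PSMB10 lies between the highest treated value of 9.05 and the lowest untreated value of 9.33.

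The constitutive subunits that these 3 replace did not pass. PSMB5 read 8.94, 8.998 and 8.92 untreated and 8.83, 8.77 and 8.87 treated, without overlap. Its difference was -0.13, and the 95% interval ran from -0.29 to 0.03 (limma adjusted p = 0.314). PSMB6 stood at 10.68 ± 0.04 untreated and 10.63 ± 0.07 treated (SD, n = 3), which is a difference of -0.05 (95% interval -0.22 to 0.11). Its groups overlapped. PSMB7 differed by -0.10 (95% interval -0.27 to 0.07), and its groups did not overlap.

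The pairs were then compared within arrays, as the immune subunit minus the subunit it replaces. PSMB8 minus PSMB5 was lower with TGF-β1 by an amount of -0.26, PSMB9 minus PSMB6 of -0.36 and PSMB10 minus PSMB7 of -0.38 on the log2 scale. In each of these 3 pairs every treated array lay below every untreated array. An exact two-sided permutation test gave p = 0.1 for each (0.133 adjusted over 4 pairs), which is the smallest p that this test can give with 3 arrays against 3, so it cannot pass the threshold here. Without both arrays numbered 1 the values were -0.26, -0.37 and -0.34. When all probe sets of a gene were averaged, the PSMB10 pair changed to -0.25, because a dim second PSMB7 probe set at 3.33 untreated and 2.98 treated then entered.

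**Figure D2:**
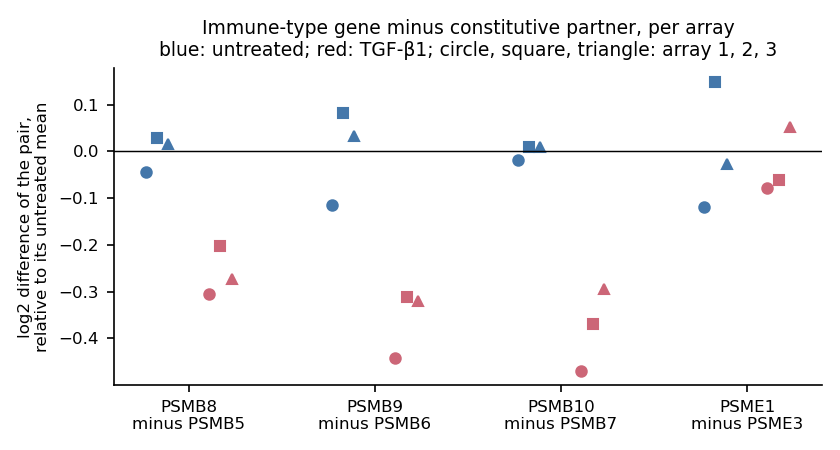
Log2 difference between an immune-type gene and the gene it was compared with on each array, relative to the untreated mean of that pair (vertical axis), for 4 pairs. In the first 3 pairs this is the subunit it replaces, and in the last PSME3, a relative of PSME1. Blue marks are untreated and red marks TGF-β1-treated arrays. Treated arrays lie below untreated arrays in the first 3 pairs, by -0.26, -0.36 and -0.38 on average, and overlap with them in the PSME1 pair.

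PSME1, the fourth immune-type gene, encodes the alpha subunit of an interferon-inducible activator cap. It read 10.22, 10.48 and 10.39 untreated and 10.06, 10.24 and 10.41 treated. The groups overlapped, and the 95% interval of the difference, -0.13, reached from -0.38 to 0.12 (limma adjusted p = 0.536). It was -0.04 without treated array 1, -0.07 without untreated array 2, -0.20 without untreated array 1 and -0.21 without treated array 3. PSME1 minus PSME3, its nuclear relative, changed by -0.03 (exact permutation p = 0.8, 0.8 adjusted over 4 pairs). PSME3 itself differed by -0.10 and overlapped. PSME4, the large single-chain activator, had the lowest difference of the activators and inhibitor, -0.18 (95% interval -0.34 to -0.01, limma adjusted p = 0.189). PSMF1, which encodes the proteasome inhibitor PI31, had the highest, -0.05. In this class 0 of 4 genes were called (limma, 1 at an unadjusted p below 0.05).

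PSMB8-AS1, a non-coding RNA that overlaps PSMB8 on the other strand, read 6.44, 6.70 and 6.55 untreated and 5.48, 5.85 and 6.01 treated. Its groups did not overlap, and it fell 1.72-fold, the largest fold among the 50 genes that matched the symbol rule (-0.79 ± 0.14, SE, limma adjusted p = 0.0127). Removing untreated array 2 or 3 ended the call (adjusted p = 0.0531 and 0.0515), and a dim second probe set differed by -0.12 without passing. The strand that the probes read was not checked here. In the RefSeq table the gene order at this locus is TAP2, PSMB8, PSMB8-AS1, TAP1 and PSMB9, where TAP1 and TAP2 encode the transporter that carries proteasome products into the endoplasmic reticulum. TAP2 fell 1.38-fold, from 8.31 ± 0.03 to 7.85 ± 0.06 (SD, n = 3, limma adjusted p = 0.0067), while TAP1 differed by -0.10 (95% interval -0.26 to 0.05). TAP2 was not called without both arrays numbered 1 (-0.49, adjusted p = 0.0539) or with the mean of its probe sets (-0.19, adjusted p = 0.156). The other called symbol outside the proteasome was PSMC3IP, a recombination factor, which fell 1.25-fold. Its call was lost under the removal of any single array (adjusted p up to 0.123). The other 6 such symbols did not pass.

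PSMD2 was the only proteasome gene that rose, in the fit of all 6 arrays and under every alternative in turn. The gene had 1 probe set, so alternatives that changed the choice of probe set could not change its difference. It encodes the base subunit on which ubiquitin-like shuttle proteins and a deubiquitinase dock. It read 11.29, 11.39 and 11.42 untreated and 11.81, 12.08 and 12.10 treated. The lowest treated array was well above the highest untreated one, and the rise was 1.55-fold, 0.63 ± 0.09 (SE, limma adjusted p = 0.00637), between 0.58 and 0.72 without single arrays. Of all genes 12.9% had treated values above all untreated values, and of the 3599 bright genes 657 did.

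Of the other 8 measured non-ATPase subunits of lid and base 0 were called (limma, 1 at an unadjusted p below 0.05). Their differences ran from -0.22 to 0.03. The lowest was that of PSMD12, a lid scaffold, which read 9.56, 9.52 and 9.58 untreated and 9.37, 9.37 and 9.26 treated, without overlap. It was not called (-0.22, 95% interval -0.38 to -0.05, limma adjusted p = 0.108).

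PSMG4 encodes a chaperone that, with PSMG3, guides the assembly of alpha subunits into a ring. It read 8.66, 8.63 and 8.80 untreated and 8.24, 8.09 and 8.17 treated. The groups were clearly apart, and the fall was 1.45-fold, -0.53 ± 0.08 (SE, limma adjusted p = 0.00609), called without each single array and without both arrays numbered 1 (-0.59, adjusted p = 0.0444). The call rested on 1 bright probe set with a shared-sequence suffix. The other 4 PSMG4 probe sets, all at 4.49 or lower in untreated cells, differed by -0.14 to 0.14 without passing, and with the mean of all its probe sets PSMG4 was not called (-0.11, adjusted p = 0.483).

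PSMG3 differed by 0.01. Of the 7 assembly chaperones, PSMG4 was the 1 that was called, and PSMD9, a chaperone of the ATPase ring, had the highest difference, 0.05. In 5 of the 7, treated values lay below all untreated values, against 16.3% of all genes and 34.9% of the bright genes above. In PSMG1 and PSMG2, the other alpha ring chaperone pair, differences were -0.17 and -0.18, with adjusted p = 0.192 and 0.157 in limma.

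PSMA3 was the 1 alpha ring subunit that was called. It read 11.14, 11.20 and 11.13 untreated and 10.71, 10.67 and 10.80 treated. The groups did not overlap, and the fall was 1.35-fold, -0.43 ± 0.07 (SE, limma adjusted p = 0.00962). It was called without each single array (adjusted p up to 0.0488) but not without both arrays numbered 1 (-0.43, adjusted p = 0.0735). With the mean of its probe sets, 2 of which are dim, the difference was -0.21 (adjusted p = 0.0997).

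**Figure D3:**
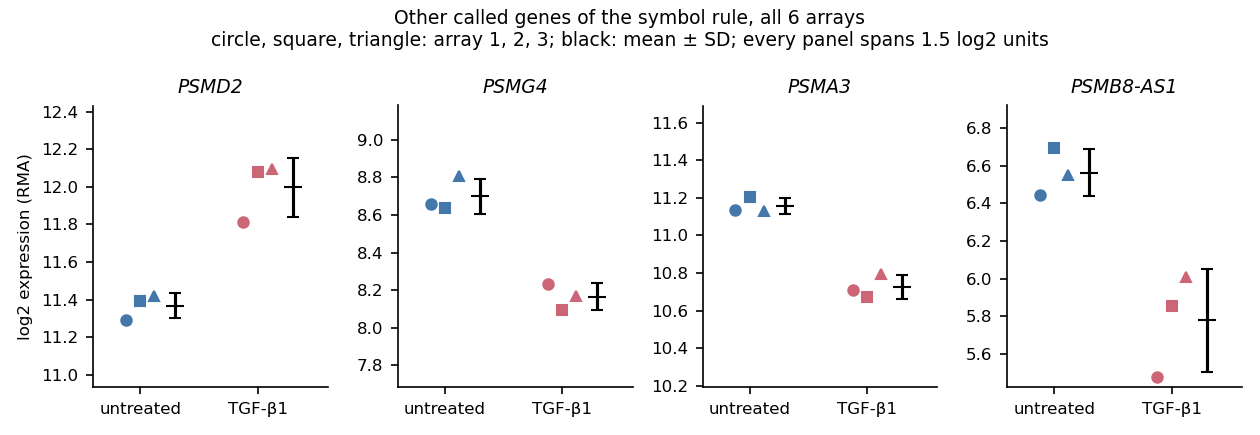
Log2 expression (RMA, vertical axes) of PSMD2, PSMG4, PSMA3 and PSMB8-AS1 on the 3 untreated (blue) and 3 TGF-β1-treated (red) arrays; circles, squares and triangles are arrays 1, 2 and 3, and black bars the mean ± SD. PSMD2 is higher on every treated array, from 11.81 upward against at most 11.42, and the other 3 are lower on every treated array.

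The remaining 6 alpha ring genes differed by -0.20 to 0.08. The highest was PSMA8, a subunit of the testis proteasome, at levels of 2.28 and 2.36, and the only one of the 42 below the median probe set. Of the 7 constitutive beta ring genes 0 were called (limma, 1 at an unadjusted p below 0.05), and all 7 differences were negative. They ran from -0.24 for PSMB2 to -0.00 for PSMB1, both non-catalytic. PSMB2 read 11.12, 11.10 and 11.11 untreated and 10.79, 10.85 and 10.97 treated, with no overlap (limma adjusted p = 0.0892).

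Among the 5 measured ATPases, which form the unfolding motor of the base, 0 were called (limma, 0 at an unadjusted p below 0.05). Their differences ran from -0.10 for PSMC2 to 0.21 for PSMC4. PSMC4 read 8.85, 8.67 and 8.86 untreated and 8.87, 8.97 and 9.16 treated, barely apart (95% interval of the difference -0.02 to 0.43, limma adjusted p = 0.258).

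Small negative differences were common among the proteasome genes that were not called. Of these 36, 27 had a difference below 0, against 50.6% of all genes, with a median of -0.06, and in 13 the treated values lay below all untreated values. Over all 42 the counts were 32 below 0 and 21 without overlap between groups, 18 of them lower, against 29.2% of all genes without overlap. Of the 3599 bright genes above, 1912 showed no overlap in either direction. The share with lower, non-overlapping values was 16.3% of all genes and 34.9% of the genes at least as bright as the dimmest proteasome gene other than PSMA8, where 61.4% of differences were below 0. Treated array 1, which had the higher 3' over 5' signal, was the lowest treated array for 21 of the 42 genes, and untreated array 1 was the lowest untreated array for 14. Untreated array 2, without the higher signal, was the lowest untreated array for 21. The part of RNA quality in these small differences was not tested. As for the called genes, the limma fit with the 3' over 5' signal as a covariate called the same 6 as without it. Without both arrays numbered 1, where fewer samples enter the fit, only PSMD2 and PSMG4 were called.

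**Figure D4:**
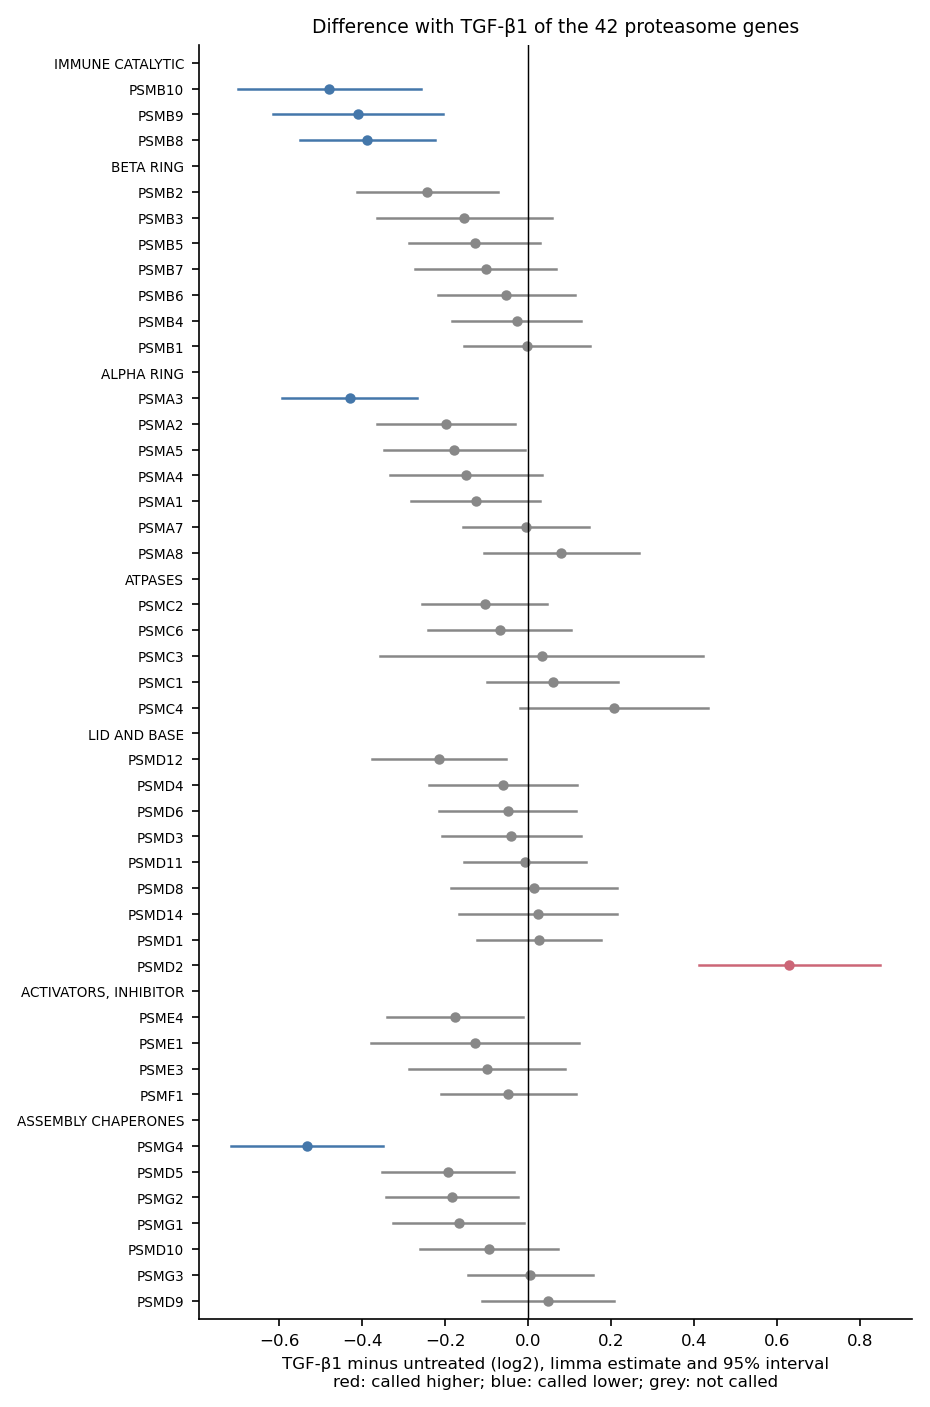
Difference between TGF-β1-treated and untreated arrays (log2, horizontal axis) with the 95% interval of the limma fit for the 42 proteasome genes, ordered by class; red genes were called higher, blue genes lower and grey genes were not called. The 3 immune catalytic subunits, PSMA3 and PSMG4 lie left of most others, at -0.39 to -0.53, and PSMD2 lies to the right at 0.63.

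Genes that work with the proteasome but lie outside the symbol rule moved in both directions. Of 24 measured genes of assembly, docking and regulation 2 rose and 3 fell, where 4.03% of all genes rose and 4.47% fell (7.59% and 9.28% of the bright genes). UCHL5, a deubiquitinase of the regulatory particle, fell 1.38-fold, from 8.25 ± 0.07 to 7.78 ± 0.08 (SD, n = 3, limma adjusted p = 0.00992). Without probe sets that carry a shared-sequence suffix, another UCHL5 probe set stood for the gene and differed by 0.068 without passing. The UCHL5 call also ended without both arrays numbered 1 (adjusted p = 0.0546). RAD23B, a shuttle that brings ubiquitin-marked proteins to the proteasome, fell 1.21-fold, a call lost without any single array (adjusted p up to 0.122). Without suffixed probe sets RAD23B differed by -0.04 (adjusted p = 0.839), and with the mean of its probe sets by -0.18. UBQLN2, another shuttle, rose 1.34-fold (adjusted p = 0.00918, but 0.0746 without both arrays numbered 1 and 0.168 without suffixed probe sets), and ZFAND2A, a stress-induced proteasome partner, rose 1.26-fold, a call that held only without treated array 1 among the single removals (otherwise adjusted p up to 0.103).

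NFE2L2, the antioxidant factor NRF2 that can raise proteasome genes, fell 1.29-fold, from 10.09 ± 0.03 to 9.73 ± 0.07 (SD, n = 3, limma adjusted p = 0.0188). It was no longer called when untreated array 1, 2 or 3 or treated array 2 was removed (adjusted p up to 0.0771), nor with the mean of its probe sets (-0.17, adjusted p = 0.18). NFE2L1, the factor that raises proteasome genes when proteasome activity is low, differed by 0.12 without passing. The sign was not stable: it was -0.02 without treated array 1, -0.05 without treated array 2, -0.04 without both arrays numbered 1 and -0.02 with the mean of its probe sets. POMP, the maturation factor of the core, did not pass, with a difference of -0.14. The antioxidant element core TGACNNNGC was found before 11 of 36 proteasome genes and before 13.2% of all genes, and PSMB9 was the 1 called proteasome gene among the 11.

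Of 14 measured genes of interferon control and the peptide pathway 1 rose and 1 fell, which is near the 4.03% and 4.47% of all genes. The fall was that of TAP2, given above, and the rise was that of IRF9, a subunit of the type I interferon transcription factor complex, at 1.43-fold. IRF9 was not called once any untreated array was removed (adjusted p = 0.05, 0.0517 and 0.0654). IRF1, which activates immunoproteasome genes, read 7.49, 7.62 and 7.47 untreated and 7.02, 7.21 and 7.29 treated, without overlap. It just missed the threshold (-0.35 ± 0.09, SE, limma adjusted p = 0.0505), and passed when genes below the median probe set were left out (adjusted p = 0.0257). IRF1 also passed with the 25th percentile filter, the mean of its probe sets, a trended robust variance, array weights or the RNA-quality covariate (limma adjusted p = 0.012 to 0.0414). It did not pass with repeated quantile normalization, median centring, a replicate block or without suffixed probe sets (0.0506 to 0.0693). Its adjusted p was up to 0.161 without single arrays. NLRC5, a coactivator of MHC class I and immunoproteasome genes, differed by -0.04.

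**Figure D5:**
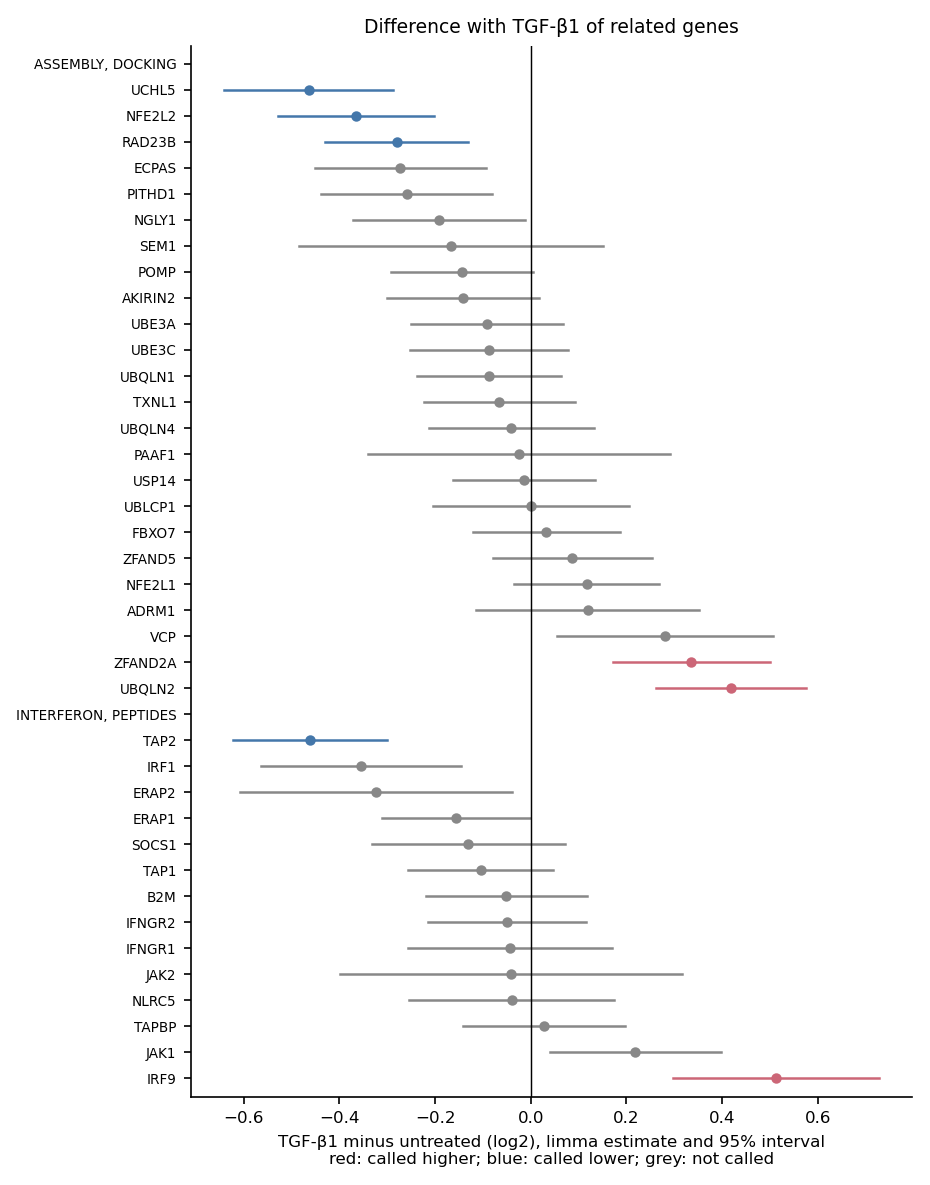
Difference between TGF-β1-treated and untreated arrays (log2, horizontal axis) with the 95% interval of the limma fit for 24 genes of proteasome assembly, docking and regulation and 14 genes of interferon control and the peptide pathway; red genes were called higher, blue genes lower and grey genes were not called. The lowest differences are those of UCHL5 and TAP2 at -0.46, and the highest is that of IRF9 at 0.51.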

How the data were processed

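Total RNA of 6 CaSki samples was measured on Affymetrix arrays with 54675 probe sets. The authors deposited log2 expression values made with Affymetrix Expression Console and RMA, per the submitters' processing notes, which name no versions here. That the scale is log2 was read from the range of the values, 1.57 to 14.5. Scanner files and detection calls were not used here, and the number of arrays limits the precision. Of the probe sets, 41091 had 1 gene symbol (platform annotation, updated through RefSeq GRCh38.p14, 0 symbols changed). For a gene with several, the probe set of highest mean over the 6 arrays was taken. The 2 groups were compared with limma 3.58.1 (R 4.3.3, no filter, no covariate) and Benjamini-Hochberg adjustment over 19775 genes. Alternatives changed the scaling, filter, choice of probe set, variance model, array weights, replicate block, RNA-quality covariate and arrays. Genes named were the called ones, the immune-type genes and the genes they were compared with, the extremes of each class, called related genes and the regulators NFE2L1, NFE2L2, IRF1 and NLRC5. PSMG1, PSMG2, PSMG3, PSMB4, PSMA4, TAP1, POMP and CARINH were named after their values were seen. The proteasome genes and lists were chosen with earlier results of these data known. The fit was tested on simulated data.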

Additional observations from a re-analysis of the deposited data

How the results depend on the processing

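PSMD2 was called higher, and the only proteasome gene so called, in every alternative run. PSMD2, PSMB8, PSMB9 and PSMB10 had 1 probe set each, so averaging probe sets could not change their differences. Leaving out suffixed probe sets could not change those of PSMD2, PSMB9 and PSMB10 either. The 5 falls became 3 when a gene's probe sets were averaged, 3 without suffixed probe sets (where PSMB8 and the bright PSMG4 probe set drop out), 11 with a trended robust variance, 1 without both arrays numbered 1, and 2 to 5 without single arrays. The 3 called immune-type genes became 0 without both arrays numbered 1 and 0 to 3 without single arrays, where fewer samples enter the fit. All genes called numbered 1680, and 995 without suffixed probe sets, 2629 with a trended robust variance, 628 without both arrays numbered 1 and 766 to 1319 without single arrays. The PSMB10 pair moved to -0.25 with the mean of probe sets, and UCHL5 reversed to 0.068 without suffixed probe sets, where another probe set represents it. With a replicate block the same 6 proteasome genes were called, and 1280 genes in all. Deviations of same-numbered arrays correlated at 0.2, 0.056 and 0.0907, of which 2 lay below 0.1, so the numbers were not taken as pairs, although for 5 of 6 arrays the best match bore the same number. PSMC3IP, RAD23B and ZFAND2A lost their calls under the block (adjusted p = 0.0703, 0.0692 and 0.0623). Rises made up 47.4% of called genes, and 57.0% without both arrays numbered 1. No detection call was used for dim probe sets such as that of PSMA8.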

Other observations

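The 27 genes with GAAAGCGAAA in the 250 bases before an annotated start were looked up after PSMB10 and PSMG4 had been seen to carry it. Of these, 24 were measured and 5 fell (limma). The 5 include PSMB10 and PSMG4, which prompted the search, and PSMB8-AS1 and TAP2, described above, so this count supports nothing. Without these 4 and TAP1, 1 of 19 measured genes fell, CARINH, a non-coding RNA beside IRF1, and their median difference was -0.02. For all genes with a window 4.6% fell, and for the 522 measured genes with the looser core 5.75% fell, with a median difference of -0.02.

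Probe sets of PSMF1 differed in sign. The brightest differed by -0.05, while the next, at 7.76 untreated and 8.07 treated, differed by 0.31 without overlap between groups (limma over all probe sets, adjusted p = 0.109). For PSMB2, whose brightest probe set differed by -0.24, a second at 7.16 untreated differed by 0.13 without passing.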
